A study of Arabidopsis thaliana with 10 samples.

Results

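The transcript response to brassinolide was measured in whole seedlings of the Arabidopsis thaliana line RiD-BRI1/BAK1, here called RiD. RiD seedlings with 100 nM brassinolide gave 2 libraries, and RiD seedlings with a mock treatment gave 2 libraries, so that 4 of the 10 libraries of the series make up this comparison. The series also held 2 libraries of RiD seedlings with 100 nM rapamycin, a macrolide that joins FKBP proteins to the FRB domain of the TOR kinase, and 2 libraries each of the wild-type accession Col-0 with rapamycin and with mock treatment. Every group, the mock controls included, was grown for 5 days in darkness in the presence of 2 µM PPZ (the compound's name in the labels), and whole seedlings of that age were collected. The line takes its name from BRI1, the brassinosteroid receptor kinase, and BAK1, a co-receptor, and the sources used here do not give its construct, its promoter or how many independent lines were used. No Col-0 library with brassinolide was analysed here, so that the hormone response of the line cannot be told apart from that of the wild type. Poly(A) RNA was sequenced, and the authors' normalized counts per transcript were summed per locus, which is the value given below.

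Brassinolide is the most active of the brassinosteroids, a family of plant steroid hormones. It is sensed at the cell surface by BRI1, which acts with BAK1, and the signal inactivates the kinase BIN2, so that the transcription factors BZR1 and BES1 act in the nucleus. These factors are known to repress genes of brassinosteroid synthesis, a feedback on hormone level, and to promote genes of cell expansion, such as those of wall-loosening enzymes and the SAUR family. In dark-grown Arabidopsis seedlings brassinosteroids promote hypocotyl growth and keep the light-grown programme off.

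From the value that 1 read takes in each library, depth was estimated at 19.1 to 19.4 M reads in the RiD libraries numbered 1 and at 29.2 to 33.9 M in those numbered 2. Libraries with the same number deviated together from their group means, with correlations across loci of 0.32 to 0.51 in the 10 pairs of groups, and the number was therefore a term in the model. Genes of the root, shoot epidermis, xylem and phloem were all detected, as whole seedlings imply. BRI1 had 7472 and 9621 normalized counts in brassinolide libraries and 8509.5 and 12206 in mock libraries, a log2 change of -0.27 (adjusted p = 0.0786, with the 6 RiD libraries alone 0.0286). BAK1 had 5433 and 5175 in brassinolide libraries and 5116 and 4908 in mock libraries, a log2 change of 0.082 (adjusted p = 0.516). The share of these values that an introduced construct may hold was not tested. Seed storage transcripts stood apart in mock library 1: CRA1, a cruciferin of the seed, had 18720.0 and 4980.5 normalized counts in brassinolide libraries and 10.3 and 2462 in mock libraries.

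Of 23285 loci tested, 3445 (14.8%) were higher and 2979 (12.8%) were lower with brassinolide than with mock treatment, at an adjusted p under 0.05. A change of at least 2-fold was seen at 1355 of the higher and 660 of the lower loci, and one of at least 8-fold at 222 and 111. Of the called loci 2808 changed by less than 1.5-fold, and the median change over all loci was -0.024 on the log2 scale. All 6424 called loci changed in the same direction in both numbered pairs of libraries. The log2 change of the fit is the mean of the changes in these pairs, so that being called itself favours such agreement. The calls depended on single libraries, and 3268 were made without brassinolide library 1 and 3861 without mock library 1. Lower calls numbered 1284 without brassinolide library 1, 1555 without mock library 1 and 1754 without mock library 2. A call is stable below if made in each of the 4 fits that leave out 1 library, with the same direction in both pairs. Stable calls numbered 1673 higher (7.18%) and 916 lower (3.93%). Without the number as a term, which is called the block below, 1079 loci (4.63%) were higher and 496 (2.13%) lower. The libraries of the groups did not overlap at 22.4% of all loci with brassinolide the higher and at 22.8% with brassinolide the lower, so that a lack of overlap alone is common. Genes named as higher or lower below also passed without the block unless their adjusted p without it is given. With 2 libraries against 2, an exact permutation test of a single value that ignores the pairs cannot give a p below 0.333. A test that keeps the pairs has fewer arrangements still, so that all calls rest on the spread shared across the model.

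**Figure D1:**
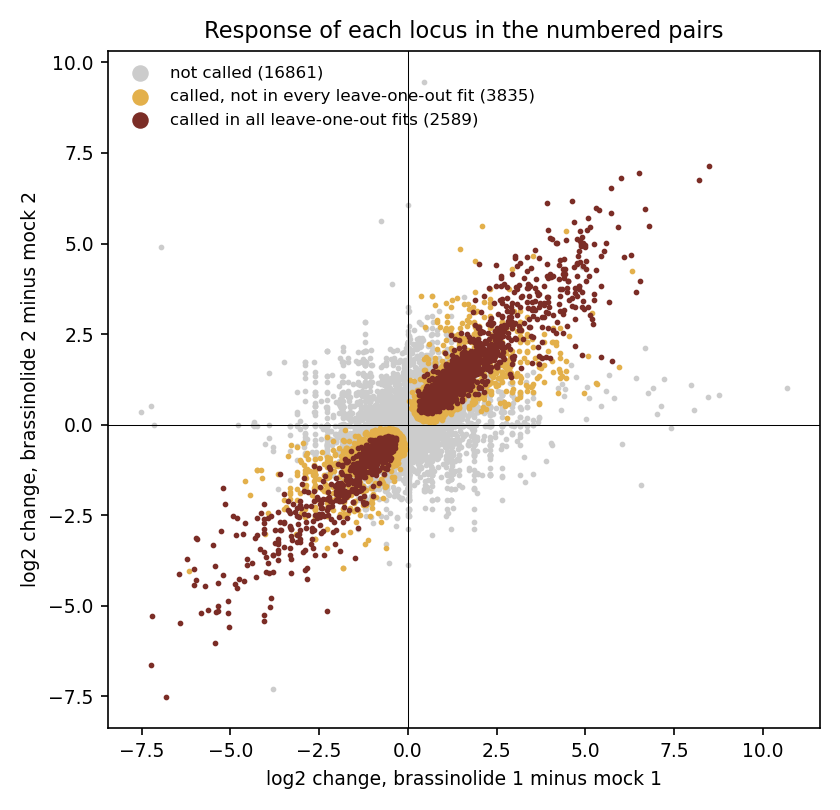
Log2 change of each of the 23285 tested loci in pair 1 (brassinolide 1 minus mock 1, x axis) and in pair 2 (brassinolide 2 minus mock 2, y axis), coloured by whether the locus was called and whether the call was stable. Of the 2589 stable calls 1673 lie at the upper right and 916 at the lower left, and the definition of stable allows no other place. The correlation of the pair responses over all loci was 0.67.

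Transcripts of brassinosteroid synthesis fell with brassinolide. Of 10 genes of the pathway, 7 were lower and 0 higher, 6 of them stably and 4 without the block, and the median of their log2 changes was -0.69. DWF4, a P450 whose step limits the flux through the pathway, had 1234 and 1204 normalized counts in brassinolide libraries and 2903 and 2903 in mock libraries. It fell by 1.25 on the log2 scale (SE 0.12, adjusted p = 1.98e-06). CPD, another P450 of the pathway, had 6403 and 8095 in brassinolide libraries against 15771 and 18307 in mock libraries, a log2 change of -1.24 (SE 0.091, adjusted p = 1.9e-07). BR6OX2, which makes brassinolide in the last step, had 2865 and 3008 with brassinolide against 7004 and 7924 with mock treatment (log2 change -1.34, SE 0.15, adjusted p = 2.73e-05). Both brassinolide libraries lay below both mock libraries for each of these genes, as they did at 22.8% of all loci. BR6OX1, which makes castasterone, changed by -0.79 (SE 0.16, adjusted p = 0.00189), with 241 and 215 normalized counts in brassinolide libraries and 397 and 393 in mock libraries. The P450 ROT3 had 1078 and 1396 in brassinolide libraries and 1600.1 and 2125 in mock libraries (adjusted p = 0.000396, without the block 0.3), and DWF1, an enzyme of the sterol part of the pathway, 13792 and 11973 with brassinolide and 20577 and 16003 with mock treatment (adjusted p = 0.000539, without the block 0.259). CYP90D1, a close relative of ROT3, had 56.7 and 104 in brassinolide libraries and 188 and 261 in mock libraries (adjusted p = 0.0157, without the block 0.0973). The sterol genes STE1 and DWF5 and the reductase gene DET2 were not called, with log2 changes of -0.20, -0.17 and 0.16.

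**Figure D2:**
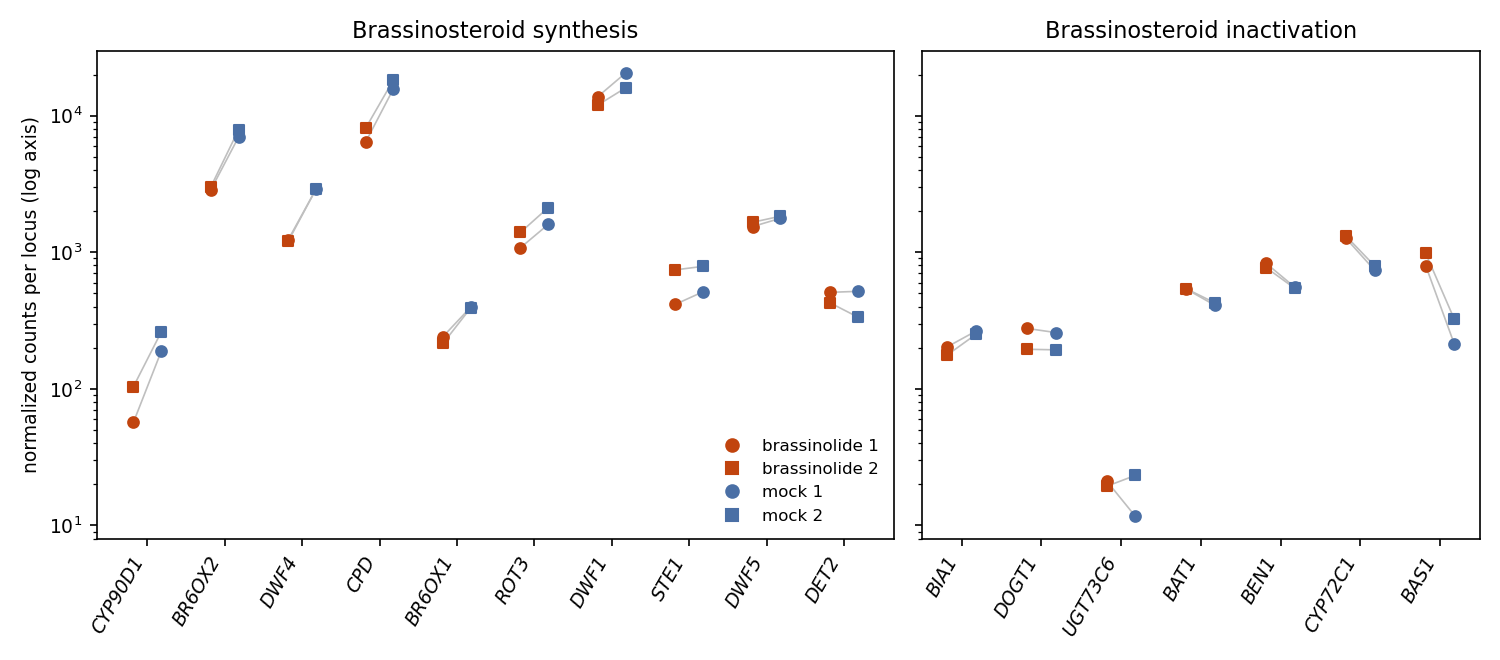
Normalized counts per locus on a log axis for the 10 synthesis genes (left) and 7 inactivation genes (right), in brassinolide libraries (orange) and mock libraries (blue), with circles for number 1, squares for number 2 and lines joining each pair. DWF4, CPD, BR6OX2 and BR6OX1 lie lower in both brassinolide libraries than in both mock libraries, and BAS1 and CYP72C1 lie higher.

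Genes of brassinosteroid inactivation rose in part. Of 7 tested, 3 were higher, all stably and 2 without the block, and 1 was lower, with a median log2 change of 0.37. BAS1, the P450 that hydroxylates and thereby inactivates brassinosteroids, had 799 and 982 normalized counts in brassinolide libraries and 212 and 322 in mock libraries, a log2 change of 1.76 (SE 0.11, adjusted p = 4.83e-08). CYP72C1, another P450 of inactivation, had 1265 and 1314 with brassinolide against 738 and 794 with mock treatment (log2 change 0.75, adjusted p = 0.000118). BEN1, a reductase tied to brassinosteroid level, had 829 and 771 with brassinolide against 553 and 543 with mock treatment (log2 change 0.54, adjusted p = 0.000982, without the block 0.0587). The acyltransferase gene BIA1 was the lower one, with 203 and 177 in brassinolide libraries and 264 and 250.4 in mock libraries (adjusted p = 0.0359, without the block 0.185). The glucosyltransferase gene DOGT1 had 277 and 195 in brassinolide libraries and 258 and 193 in mock libraries, a log2 change of 0.057 (adjusted p = 0.801).

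Among receptors, the BRI1 relative BRL3 had 212 and 183 normalized counts in brassinolide libraries and 271 and 362 in mock libraries (log2 change -0.67, adjusted p = 0.00881, without the block 0.109). The co-receptor gene SERK4 rose by 0.71 on the log2 scale (adjusted p = 0.000284), with 710.4 and 606 in brassinolide libraries and 394 and 409 in mock libraries. It was the 1 of 8 receptor genes called higher, and 2 were called lower, while 5 of 8 were called with the 6 RiD libraries alone and 1 without the block; calls numbered 1 of 8 without brassinolide library 2 or without mock library 2. The called share was 37.5% for the receptor genes and 26.7% for 15 kinase, phosphatase and inhibitor genes of the pathway, beside 27.6% of all loci. Of these 15 genes 3 were higher and 1 lower, and 1 was stable and was also the 1 call without the block. That one was BSU1, a phosphatase that acts on BIN2 in Arabidopsis, with 13.2 and 16.2 normalized counts in brassinolide libraries and 1.29 and 1.6 in mock libraries, or 3 reads in all, a ratio of 10.2 (95% counting interval 3.18 to 52.1). Without brassinolide library 1 it was the 1 call left on that list, and without brassinolide library 2 there were 2. BIN2 itself had 6228 and 9972 in brassinolide libraries and 5964 and 8960.2 in mock libraries, a log2 change of 0.11 (adjusted p = 0.384).

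In the BZR1 family, BEH2 was the member with a stable change. It had 2423 and 3644 normalized counts in brassinolide libraries and 5106 and 6272 in mock libraries, a log2 change of -0.93 (SE 0.094, adjusted p = 4.72e-06, without the block 0.0752). BZR1 had 617 and 969 in brassinolide libraries and 627 and 908 in mock libraries (log2 change 0.035, adjusted p = 0.833), and BES1 2592 and 3317 with brassinolide and 2329.8 and 2779 with mock treatment (log2 change 0.20, adjusted p = 0.0874). BEH4 rose by 0.32 on the log2 scale (adjusted p = 0.0302, without the block 0.652), and was not called in every leave-one-out fit. BEH1 and BEH3 had log2 changes of 0.094 and 0.0057. In each fit that left out 1 library BEH2 was the 1 call in the family, and BZR1 had a log2 change of -0.035 without brassinolide library 2.

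BZR1 and BES1 are known to bind the brassinosteroid response element, CGTGTG or CGTGCG, and the G-box, CACGTG. The 250 bases before the annotated start of 22444 tested loci were searched for these letters on both strands in the TAIR10.1 genome of RefSeq, by locus name. The response element in either form was found in 6.94% of all windows, in 7.39% of those of loci called higher and in 8.33% of those called lower, and among stable calls in 7.53% and 10.2%. The form CGTGCG was in 1.72% of all windows, in 0.964% of windows of stably higher loci and in 3.96% of windows of stably lower loci. For CGTGTG these shares were 5.48%, 6.69% and 6.93%, and for the G-box 7.31%, 6.45% and 8.14%. None of these shares was tested against another. The windows printed here are those of a member of the BZR1 family that fell and held the most matches among the loci named by rule (BEH2), an expansin gene that fell (EXPA2), an auxin repressor gene and a wall enzyme gene that rose (IAA19, XTR6), the BZR1 gene itself, whose transcript was not called, and a synthesis gene that fell (DWF4). Each is given 5′ to 3′ on the strand of the gene, ending at the base before the annotated start, with matches to either motif in capitals.
BEH2: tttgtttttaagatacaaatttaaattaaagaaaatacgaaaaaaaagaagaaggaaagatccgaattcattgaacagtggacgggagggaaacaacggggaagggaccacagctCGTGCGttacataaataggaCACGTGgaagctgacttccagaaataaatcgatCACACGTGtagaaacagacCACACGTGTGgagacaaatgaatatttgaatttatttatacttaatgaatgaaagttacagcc
EXPA2: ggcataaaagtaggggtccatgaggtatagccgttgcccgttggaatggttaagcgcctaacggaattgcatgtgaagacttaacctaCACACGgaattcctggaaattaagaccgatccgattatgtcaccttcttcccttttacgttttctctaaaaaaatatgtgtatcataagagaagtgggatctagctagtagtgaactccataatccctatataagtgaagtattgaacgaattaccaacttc
IAA19: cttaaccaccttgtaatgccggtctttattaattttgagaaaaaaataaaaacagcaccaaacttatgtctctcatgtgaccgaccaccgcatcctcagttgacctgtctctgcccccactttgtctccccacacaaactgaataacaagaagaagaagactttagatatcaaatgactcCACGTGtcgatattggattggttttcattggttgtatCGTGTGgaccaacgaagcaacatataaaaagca
XTR6: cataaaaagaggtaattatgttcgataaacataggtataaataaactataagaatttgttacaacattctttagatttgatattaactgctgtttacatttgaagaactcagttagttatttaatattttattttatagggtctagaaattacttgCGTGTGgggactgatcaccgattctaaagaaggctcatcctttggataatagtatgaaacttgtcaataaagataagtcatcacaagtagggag
BZR1: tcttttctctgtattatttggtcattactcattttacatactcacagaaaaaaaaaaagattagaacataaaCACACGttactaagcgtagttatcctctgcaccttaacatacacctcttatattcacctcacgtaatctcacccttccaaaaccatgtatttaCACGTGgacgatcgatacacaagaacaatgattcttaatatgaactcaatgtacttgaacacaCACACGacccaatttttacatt
DWF4: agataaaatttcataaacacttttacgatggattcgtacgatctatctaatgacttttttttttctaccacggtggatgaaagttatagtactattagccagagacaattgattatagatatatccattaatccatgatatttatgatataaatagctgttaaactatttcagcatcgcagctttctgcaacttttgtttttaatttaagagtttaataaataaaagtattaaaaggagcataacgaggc

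The windows lie at chr4:17334356-17334605 on the minus strand for BEH2, chr5:1568444-1568693 on the plus strand for EXPA2, chr3:5263751-5264000 on the plus strand for IAA19, chr4:13128144-13128393 on the plus strand for XTR6, chr1:28185254-28185503 on the plus strand for BZR1 and chr3:18817406-18817655 on the minus strand for DWF4. The BEH2 window held 4 matches to the response element and 3 to the G-box, in part overlapping. The BZR1 window held 2 matches to the response element and 1 to the G-box, although the transcript had a log2 change of 0.035. IAA19 had 1 match to each motif, and EXPA2 and XTR6 1 match each to the response element. The printed windows do not stand for their gene families. Among the other expansin, Aux/IAA and xyloglucan enzyme genes named by rule, the window of XTH25 held the response element. Those of EXPA4, EXPA8, EXPA12, IAA6, IAA34, PAP1, TCH4, XTH14 and XTH21 held neither motif. None of the 10 windows of synthesis genes held the response element, and that of DWF4 held neither motif, which says only that these letters were not in this window.

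Basic helix-loop-helix factors without a DNA-binding role, the PRE family, and the factors they antagonise changed in both directions. Of 14 tested, 4 were higher and 2 lower, 3 and 1 of them stably. PRE5 had 145 and 131 normalized counts in brassinolide libraries and 72.2 and 73.4 in mock libraries (log2 change 0.91, adjusted p = 0.00258), and KDR, also called PRE6, had 1151 and 1061 with brassinolide and 619.9 and 468 with mock treatment (log2 change 1.04, adjusted p = 8.31e-06). AIF1, a factor that inhibits brassinosteroid growth responses when overexpressed, rose by 1.13 on the log2 scale (adjusted p = 7.93e-05), with 221 and 213 in brassinolide libraries and 102 and 95.1 in mock libraries. BS1 (AT1G74500), also known as PRE3 or TMO7, was nearly lost, with 1.31 and 1.54 normalized counts in brassinolide libraries against 115 and 86.8 in mock libraries, which is 3 reads in the brassinolide group and a ratio of mock to brassinolide of 66.6 (95% counting interval 22.5 to 326, adjusted p = 5.36e-08). PRE1 had 27.6 and 17.7 in brassinolide libraries and 45.1 and 17.5 in mock libraries, a log2 change of -0.34 (adjusted p = 0.65), and without mock library 1 that change was 0.20. IBH1, which inhibits cell elongation, was called with a log2 change of -0.31 (adjusted p = 0.0472, without the block 0.581), and in no fit that left out 1 library.

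Of 8 activating factors 1 was higher and 3 were lower, and calls numbered 1 without the block, and 2 without brassinolide library 1, without either mock library and with 4 libraries alone. BEE1, an early brassinosteroid response gene, had 591 and 536 normalized counts in brassinolide libraries and 325 and 264 in mock libraries (log2 change 0.94, SE 0.12, adjusted p = 2.98e-05). HBI1, a growth promoter, had 1089.7 and 1496 in brassinolide libraries and 1422 and 2265 in mock libraries (log2 change -0.49, adjusted p = 0.00103, without the block 0.516), and in both pairs the brassinolide library lay below its mock partner.

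Auxin response genes changed in both directions, with more calls upward. Of 74 SAUR genes tested, which encode small proteins tied to cell expansion, 33 were higher and 10 lower, 18 and 2 of them stably and 25 and 3 without the block. The median log2 change was 1.01, beside -0.024 over all loci, and 24 were called without brassinolide library 1, against 43 with all libraries. SAUR9 had 606 and 531 normalized counts in brassinolide libraries and 28.4 and 28.8 in mock libraries, a log2 change of 4.26 (SE 0.21, adjusted p = 4.59e-09). AT5G66260 had 134 and 64.4 in brassinolide libraries and 3.87 and 1.57 in mock libraries (log2 change 4.73, SE 0.41, adjusted p = 9.64e-07), and AT2G18010 had 166 and 121 with brassinolide and 7.73 and 4.74 with mock treatment (log2 change 4.33, SE 0.40, adjusted p = 1.92e-06). AT4G38860, known as SAUR16, had 269 and 321 with brassinolide against 63.2 and 35.9 with mock treatment (log2 change 2.60, adjusted p = 9.11e-07), and its neighbour SAUR15 88.1 and 69.9 with brassinolide against 23.2 and 5.57 with mock treatment (log2 change 2.66, adjusted p = 0.00341). In each of these 5 genes both brassinolide libraries lay above both mock libraries, as they did at 22.4% of all loci. In the run of 8 tested neighbours from AT1G29420 to AT1G29510 on chromosome 1, 7 were higher, 5 of them stably, and 5 were called without the block. In the run of 6 from AT5G18010 to AT5G18080 on chromosome 5, which holds SAUR19 to SAUR24, 5 were higher and 0 stable. There 2 were called without the block, and the log2 changes of all 6 tested were 1.67 to 2.32. Genes of a run are close copies of each other, and how reads were shared between them is not known. The stably lower members were AT4G31320, with 7.89 and 10.8 in brassinolide libraries and 72.1 and 54.2 in mock libraries (log2 change -2.63, adjusted p = 0.000175), and AT1G75590, with 128 and 88.7 with brassinolide and 298 and 175 with mock treatment (log2 change -1.09, adjusted p = 0.000982, without the block 0.102).

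**Figure D3:**
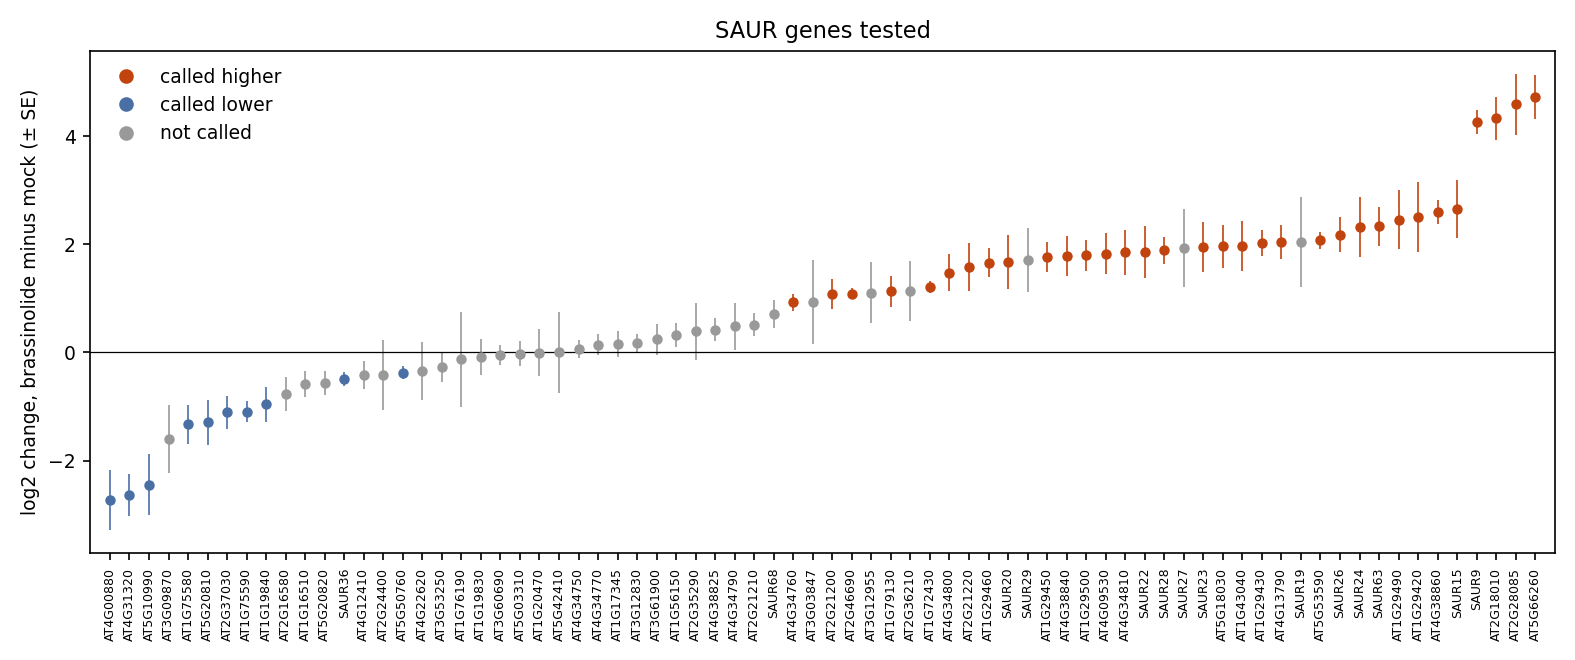
Log2 change (brassinolide minus mock, with its SE from the model) of the 74 tested SAUR genes in order of the change, orange where called higher, blue where called lower and grey where not called. The 33 higher calls fill the right of the plot, up to 4.73 for AT5G66260, and the 10 lower calls lie at the left.

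Other early auxin genes changed as well. Of 28 Aux/IAA repressor genes 10 were higher and 3 lower, 5 and 2 stably and 3 and 1 without the block, with a median of 0.09 and 8 calls without mock library 2. IAA6 had 263 and 180.4 normalized counts in brassinolide libraries and 34.8 and 23.2 in mock libraries (log2 change 2.90, SE 0.21, adjusted p = 1.6e-07). IAA34 had 178 and 102 with brassinolide against 29.6 and 21.5 with mock treatment (log2 change 2.37, adjusted p = 1.66e-06), and IAA19 had 1853 and 1669.5 with brassinolide against 858 and 554 with mock treatment (log2 change 1.35, adjusted p = 8.5e-07). In these 3 genes the groups did not overlap, and brassinolide was the higher, as at 22.4% of all loci. PAP1 (AT3G16500), also called IAA26, was lower, at 1100.1 and 1059.5 with brassinolide against 1910.4 and 1642 with mock treatment (log2 change -0.71, adjusted p = 7.78e-05, without the block 0.0632). Of 10 genes of the GH3 family, most of whose members conjugate amino acids to hormones, 6 were higher and 0 lower, 4 stably and 3 without the block. GH3.1 had 211 and 200.2 normalized counts in brassinolide libraries and 9.03 and 11.2 in mock libraries (log2 change 4.22, SE 0.40, adjusted p = 2.93e-06), and BRU6, also called GH3.2, 1020.1 and 937 with brassinolide and 306 and 248 with mock treatment (log2 change 1.82, adjusted p = 7.9e-08). YUC3, a flavin monooxygenase of auxin synthesis, was the 1 called gene of 11 on that list (3 with a constant of 5), with 170.0 and 165 in brassinolide libraries and 38.7 and 56 in mock libraries (log2 change 1.83, adjusted p = 5.08e-05). Of 11 auxin carrier genes 5 were lower, 4 stably, and 1 was higher. PIN6 was the 1 carrier that passed without the block, with 10.54 and 10.8 normalized counts in brassinolide libraries and 38.7 and 40.8 in mock libraries (log2 change -1.80, adjusted p = 0.0016). EIR1, also called PIN2, a root carrier, had 270.2 and 413 in brassinolide libraries and 658 and 986 in mock libraries (log2 change -1.27, adjusted p = 0.00127, without the block 0.0511), and LAX3, an influx carrier, 1086 and 1585 with brassinolide and 1984 and 2422 with mock treatment (log2 change -0.74, adjusted p = 3.91e-05, without the block 0.122).

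Wall enzyme genes split into members that rose and members that fell. Of 30 xyloglucan endotransglucosylase genes, whose products cut and rejoin wall xyloglucan, 13 were higher and 7 lower, 9 and 4 stably and 7 and 4 without the block. TCH4 had 2597 and 1811 normalized counts in brassinolide libraries and 1154 and 774 in mock libraries (log2 change 1.1977, SE 0.11, adjusted p = 1.14e-06). XTR6, also called XTH23, had 1188 and 987 with brassinolide against 317 and 349 with mock treatment (log2 change 1.70, adjusted p = 1.1e-07). XTH25 had 122 and 43.2 in brassinolide libraries and 1.29 and 12 in mock libraries (log2 change 3.76, SE 0.82, adjusted p = 0.0161). The groups did not overlap, but the libraries of each group lay far apart, and the adjusted p was 0.0903 with the 6 RiD libraries alone and 0.177 with 4 libraries. XTH21 was lower, at 0 and 3.86 with brassinolide against 61.9 and 41.5 with mock treatment (adjusted p = 0.000142), and so was XTH14, at 19.8 and 31.6 with brassinolide against 96.7 and 72.7 with mock treatment (adjusted p = 0.000299). Of 21 expansin genes, which loosen walls, 4 were higher and 8 lower, 3 and 5 stably and 2 and 5 without the block. EXPA8 had 2553 and 3175 in brassinolide libraries and 798 and 958 in mock libraries (log2 change 1.70, SE 0.10, adjusted p = 1.4e-08), and EXPA4 4348 and 3156 with brassinolide and 1740.2 and 1452 with mock treatment (log2 change 1.22, adjusted p = 1.66e-07). EXPA2 had 3.95 and 10 with brassinolide against 96.7 and 95.9 with mock treatment (log2 change -3.72, SE 0.37, adjusted p = 4.18e-06), and EXPA12 had 159 and 171 with brassinolide against 516 and 341 with mock treatment (log2 change -1.34, adjusted p = 8.84e-05).

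Of 46 arabinogalactan protein genes, whose products are wall proteoglycans, 14 were higher and 7 lower, 13 and 3 stably and 6 and 3 without the block. AGP30, a protein of roots, had 0 and 2.31 normalized counts in brassinolide libraries and 148 and 127 in mock libraries, and its 3 reads in the brassinolide group give a ratio of mock to brassinolide of 92.6 (95% counting interval 31.4 to 452, adjusted p = 1.06e-06). AGP22 had 1115 and 1110.1 with brassinolide against 329.6 and 221 with mock treatment (log2 change 2.04, adjusted p = 4.23e-08), and AGP31 1078 and 989 with brassinolide against 5948 and 3257 with mock treatment (log2 change -2.09, adjusted p = 3.12e-07). On the arabinogalactan list 45.7% were called, beside 27.6% of all loci, of which 14.8% were higher and 12.8% lower. For the aquaporin, cellulose synthesis and proton pump genes that follow, the called shares were 55.0%, 8.33% and 40.0%. Of 20 aquaporin genes 9 were higher and 2 lower, 8 and 2 stably, and 3 and 0 without the block. The tonoplast channel gene TIP2;3 had 15503 and 14581 in brassinolide libraries and 6283 and 4118 in mock libraries (log2 change 1.56, adjusted p = 5.24e-07). Of 12 genes of primary wall cellulose synthesis 0 were higher and 1 lower, and none was stable or called without the block. Of 10 proton pump genes 2 were higher and 2 lower with none stable, and none was called without the block or without brassinolide library 1.

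Ethylene synthesis genes moved in both directions. ACC synthases make the ethylene precursor in the rate-limiting step, and ACC oxidases make ethylene from it. Of 15 such genes 5 were higher and 3 lower, 4 and 2 stably and 4 and 1 without the block. ACS5 had 490.2 and 725 normalized counts in brassinolide libraries and 15.5 and 19.2 in mock libraries (log2 change 5.03, SE 0.22, adjusted p = 1.54e-09). ACS8 had 209.5 and 203 with brassinolide against 6.45 and 6.4 with mock treatment (log2 change 4.80, SE 0.29, adjusted p = 3.17e-08). ACS4 had 65.9 and 29.4 with brassinolide against 1.29 and 0 with mock treatment, or 1 read in the mock group, a ratio of 86.8 (95% counting interval 15.2 to 3466). In each of these genes both brassinolide libraries were far above both mock libraries, and brassinolide was the higher without overlap at 22.4% of all loci. ACS11 was lower at 249 and 224 with brassinolide against 604 and 442 with mock treatment (log2 change -1.13, adjusted p = 0.00163, without the block 0.143), though not stably. Of the oxidases, ACO1 had 123 and 134 in brassinolide libraries and 279.9 and 209.6 in mock libraries (log2 change -0.92, adjusted p = 0.000592).

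In the gibberellin pathway, GA2OX8, an enzyme that inactivates gibberellin precursors, had 113 and 100.3 normalized counts in brassinolide libraries and 2.58 and 2.4 in mock libraries (log2 change 4.95, SE 0.36, adjusted p = 1.73e-07). GA20OX1, an enzyme of synthesis, had 71.1 and 122 with brassinolide against 16.8 and 24.8 with mock treatment (log2 change 2.14, adjusted p = 0.000115). GA20OX5 was listed at 0 in both mock libraries and at 14.5 and 15.5 in brassinolide libraries, which is at least 4.78-fold higher (the floor is the mean over the group of the value of 3 reads in each library). Of 13 such oxidases 5 were higher and 1 lower, 4 and 0 stably and 3 and 0 without the block. Of 16 genes of gibberellin signalling and the GASA family 2 were higher and 3 lower, 2 and 2 stably and 2 and 2 without the block. The called share was 31.25%, near the 27.6% of all loci. GASA4, a gibberellin-induced peptide gene, had 30558 and 38883 with brassinolide against 61269 and 73817 with mock treatment (log2 change -0.96, adjusted p = 1.13e-06), and RGL2, a DELLA repressor, 73.8 and 33.2 with brassinolide against 169 and 153 with mock treatment (log2 change -1.68, adjusted p = 0.000361).

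Type-A response regulators, which are induced by cytokinin and damp its signal, were lower at 5 of 9 genes and higher at 0, 4 of them stably and 2 without the block. ARR3 had 14.5 and 8.49 normalized counts in brassinolide libraries and 99.3 and 67.1 in mock libraries (log2 change -2.77, SE 0.35, adjusted p = 3.71e-05), and ARR6 had 43.5 and 40.1 with brassinolide and 169 and 156 with mock treatment (log2 change -1.93, SE 0.20, adjusted p = 5.77e-06). ARR4 was not called, with 1402 and 912 with brassinolide against 1612 and 995 with mock treatment (adjusted p = 0.267).

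Genes of the jasmonate and abscisic acid responses rose in part. JAZ genes encode repressors of jasmonate signalling that jasmonate itself induces, and 7 of 12 were higher and 0 lower, 3 stably and 1 without the block. JAZ6 had 459.8 and 442 normalized counts in brassinolide libraries and 175 and 208 in mock libraries (log2 change 1.24, adjusted p = 9.91e-06). Among 14 genes that respond to drought or abscisic acid, 8 were higher and 0 lower, 4 stably and 4 without the block. HAI1, a phosphatase gene induced by abscisic acid, had 472 and 413 in brassinolide libraries and 115 and 105 in mock libraries (log2 change 2.00, SE 0.16, adjusted p = 4.45e-07). NCED3, the enzyme of the limiting step of abscisic acid synthesis, had 306 and 306 with brassinolide against 112 and 89.7 with mock treatment (log2 change 1.60, adjusted p = 2.61e-05), and the drought-induced gene RD22 had 14131 and 14457 with brassinolide against 4495 and 4152 with mock treatment (log2 change 1.73, adjusted p = 3.46e-09). Both brassinolide libraries lay above both mock libraries for each of the 4 genes named here, as at 22.4% of all loci. Without brassinolide library 1, 3 JAZ genes and 4 genes of the abscisic acid list were called.

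Of 65 WRKY factor genes, many of which respond to stress and defence signals, 32 were higher and 3 lower, 16 and 2 stably and 14 and 0 without the block. Their median log2 change was 0.41, and 21 were called without brassinolide library 1 and 22 without mock library 1. WRKY48 had 314 and 362 normalized counts in brassinolide libraries and 24.5 and 47.2 in mock libraries (log2 change 3.27, SE 0.21, adjusted p = 4.76e-08). WRKY60 had 325 and 264 with brassinolide against 36.1 and 42.4 with mock treatment (log2 change 2.87, adjusted p = 4.84e-08), and WRKY46 had 51.4 and 58.7 with brassinolide against 6.45 and 7.2 with mock treatment (log2 change 2.84, adjusted p = 5.83e-05). The groups did not overlap for any of these 3 factors, which were all higher with brassinolide, a pattern seen at 22.4% of all loci. Of 16 immune response genes 5 were higher and 2 lower, 3 and 1 without the block, with 3 called without brassinolide library 1 and 4 without mock library 1. PAD3, the last enzyme of camalexin synthesis, was lower, with 7.91 and 13.9 in brassinolide libraries and 64.5 and 69.6 in mock libraries (log2 change -2.56, adjusted p = 4.51e-05). CYP81F2, a P450 of indole glucosinolate defence, was higher, at 133 and 88.9 with brassinolide against 34.8 and 48.8 with mock treatment (log2 change 1.38, adjusted p = 0.000859).

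Markers of root cell types moved in opposite directions. Root hairs are outgrowths of root epidermal cells, and of 11 root hair markers tested 9 were lower and 0 higher, 6 stably and 8 when the block was left out, and the median of the log2 changes was -2.78. EXPA7, an expansin of root hairs, was at 0 in both brassinolide libraries and had 40 and 31.2 normalized counts in mock libraries, which is at least 11.3-fold lower, against that floor. EXPA18, a second root hair expansin, was likewise at 0 in both brassinolide libraries and had 28.3 and 20 in mock libraries, at least 7.70-fold lower. EXPA7 and EXPA18 are also on the expansin list, and XTH14 is on this list and the xyloglucan endotransglucosylase list. The counts of these lists are therefore not separate results. The wall protein gene PRP3 had 0 and 3.09 in brassinolide libraries and 73.5 and 52.8 in mock libraries (adjusted p = 7.49e-06). LRL3, a root hair transcription factor gene, had 0 and 1.54 with brassinolide against 42.6 and 36.8 with mock treatment, or 2 reads with brassinolide, a ratio of mock to brassinolide of 40.1 (95% counting interval 10.7 to 336, adjusted p = 3.26e-06). RHD6, the factor that starts root hair growth, had 5.27 and 9.27 with brassinolide against 25.8 and 36.8 with mock treatment (adjusted p = 0.00439, not stable). RHD2, an NADPH oxidase of root hair growth, had 91 and 158 in brassinolide libraries and 112 and 163 in mock libraries (log2 change -0.17, adjusted p = 0.515). The summed level of the 11 markers was 158 and 243 normalized counts in brassinolide libraries and 539 and 486 in mock libraries. In bulk samples such as these, fewer cells of a type and less RNA per cell cannot be told apart.

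The endodermis is the root layer whose walls carry the Casparian strip and suberin. Of its 12 markers 10 were higher and 0 lower, 9 stably and 7 without the block, with a median of 1.22. GPAT5, an acyltransferase of suberin synthesis, had 105 and 88.1 normalized counts in brassinolide libraries and 3.87 and 1.6 in mock libraries (log2 change 4.77, SE 0.37, adjusted p = 3.36e-07). CYP86A1, the suberin fatty acid hydroxylase, had 179 and 159 with brassinolide against 9.03 and 4 with mock treatment (log2 change 4.58, SE 0.41, adjusted p = 1.5e-06). CASP1, a scaffold protein of the Casparian strip, had 3027 and 2783 in brassinolide libraries and 1395 and 1035 in mock libraries (log2 change 1.27, adjusted p = 6.97e-06). The endodermal identity gene SCR and the receptor gene GSO1 were the members not called, with log2 changes of -0.23 and -0.11 (adjusted p = 0.1 and 0.472). The summed level of the list was 17364 and 17523 in brassinolide libraries and 10623 and 9449 in mock libraries.

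**Figure D4:**
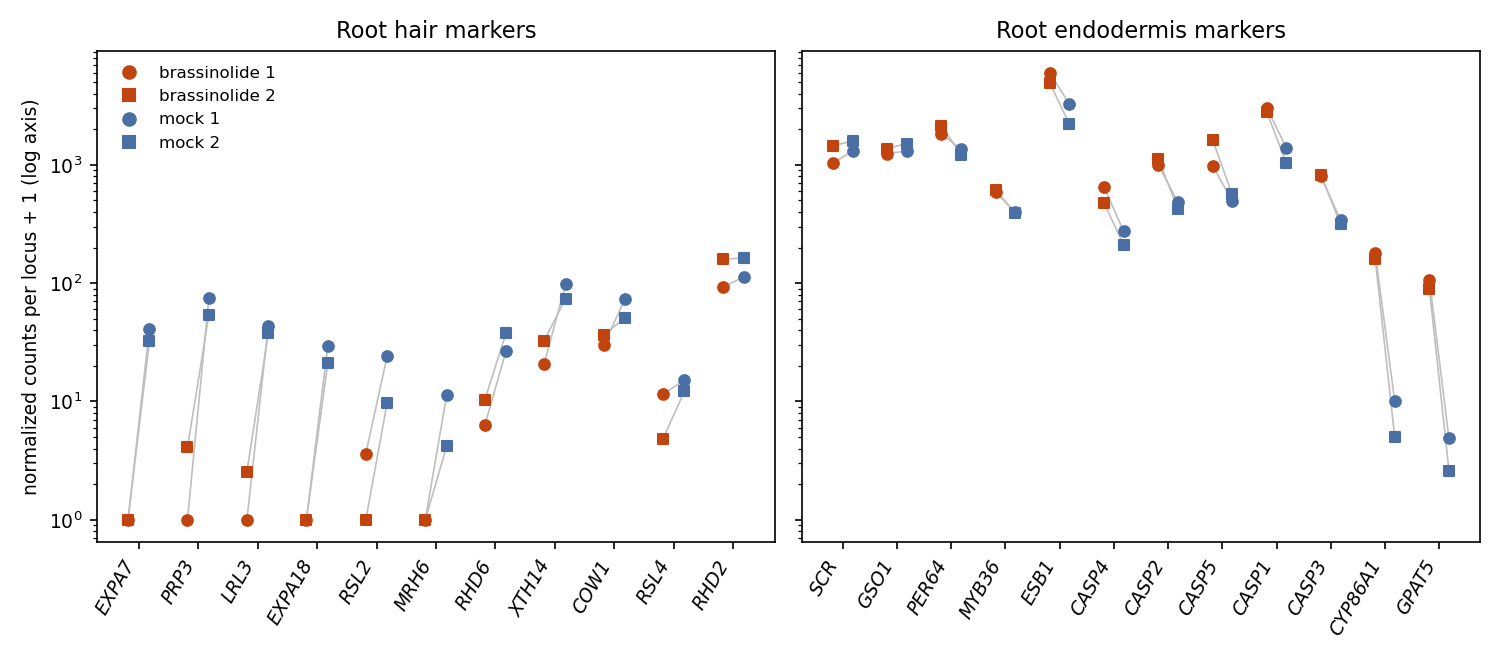
Normalized counts per locus plus 1, on a log axis, of 11 root hair markers (left) and 12 root endodermis markers (right) in brassinolide libraries (orange) and mock libraries (blue), with circles for number 1, squares for number 2 and lines joining each pair. EXPA7 and EXPA18 are at 0, drawn at 1, in both brassinolide libraries, and GPAT5 and CYP86A1 lie far above their mock values.

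Markers of other tissues were counted too. Of 9 genes of the shoot epidermis and cuticle 4 were higher, all stably and 2 without the block, among them the wax gene KCS6 with 11161 and 12441 normalized counts in brassinolide libraries and 6784 and 6584 in mock libraries (log2 change 0.82, adjusted p = 8.19e-06). Of 12 xylem and secondary wall genes 5 were higher, 2 stably and 0 without the block, and 2 were called without brassinolide library 2 or mock library 1. In the stomatal lineage 2 of 10 were higher, 1 without the block, a called share below the 27.6% of all loci. TMM, a receptor-like protein of stomatal patterning and the most changed member, had 402 and 409 in brassinolide libraries and 108 and 118 in mock libraries (log2 change 1.83, SE 0.16, adjusted p = 1.22e-06). Of 8 phloem genes 2 were lower and 0 stable, and none was called without the block or without mock library 2. The called share of the phloem list also lay below 27.6%, and those of the epidermis and xylem lists lay above it. Of 13 seed storage and embryo genes, whose sum was 34534 and 13256 in brassinolide libraries and 257 and 7410 in mock libraries, 1 was called, OLEO2, an oleosin, with 569 and 254 with brassinolide against 90.3 and 96.6 with mock treatment (adjusted p = 0.00973), while 6 were called without mock library 2, 5 by moderation without robustness and 4 by edgeR. The low sum of mock library 1 thus moved with this list, and its part in other results was not tested.

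Genes induced by darkness and sugar starvation rose. Of 13 tested, 11 were higher and 0 lower, 10 stably and 7 without the block, with a median of 0.65. DIN2, a glucosidase gene, had 37309 and 28438 normalized counts in brassinolide libraries and 6728 and 7176 in mock libraries (log2 change 2.23, SE 0.20, adjusted p = 0.000129). DIN10, of the raffinose synthase family, had 61935 and 69195 with brassinolide against 27924 and 37245 with mock treatment (log2 change 1.02, adjusted p = 1.93e-06). ASN1, an asparagine synthetase that stores nitrogen when carbon is short, had 97302 and 96453 with brassinolide against 63551 and 73262 with mock treatment (log2 change 0.51, adjusted p = 0.00175, without the block 0.115). DIN11 was not called, with 136 and 151 with brassinolide against 144 and 126 with mock treatment. Of 28 autophagy genes 13 were higher and 0 lower, 4 stably and 0 without the block. ATG8B, of the family that coats autophagosomes, had 4007 and 2908 in brassinolide libraries and 2272 and 1578 in mock libraries (log2 change 0.85, adjusted p = 4.72e-06, without the block 0.181). Autophagy calls numbered 6 without brassinolide library 1, 7 without brassinolide library 2 and 5 without mock library 1.

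Cytosolic ribosomal protein genes were listed by name only, as loci with a symbol or synonym of RPL or RPS and a number. Genes of the class under other names were not counted. Of the 27 genes listed 23 were lower and 0 higher, 7 of them stably and 1 when the block was left out. The median of the log2 changes was -0.44. Their summed level was 117565 and 92700 normalized counts in brassinolide libraries and 174195 and 118680 in mock libraries, so that mock library 2 and brassinolide library 1 had nearly the same sum and the difference lay within each numbered pair. Without brassinolide library 1, 7 were called, and without mock library 1, 8. ATL5, a gene of ribosomal protein L5, had 5565 and 5979 in brassinolide libraries and 9292 and 8884 in mock libraries (log2 change -0.66, SE 0.093, adjusted p = 0.000114). Of 11 nucleolar factors 6 were lower and 0 higher, 4 stably and 0 without the block. FIB2, a fibrillarin that methylates ribosomal RNA, had 315 and 262 with brassinolide against 562 and 459 with mock treatment (log2 change -0.82, adjusted p = 0.00101, without the block 0.099).

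Chlorophyll synthesis genes were lower at 10 of 18 and higher at 0, 3 stably and 0 without the block, while edgeR called 6, and 3 were called without brassinolide library 1 or without mock library 1. PORA, the protochlorophyllide oxidoreductase of dark-grown seedlings, had 33335 and 33757 normalized counts in brassinolide libraries and 53457 and 46955 in mock libraries (log2 change -0.58, adjusted p = 0.000366, without the block 0.114). Of 50 light-harvesting and photosystem genes 9 were lower and 2 higher, 3 and 0 stably and none without the block, and 4 were called without brassinolide library 1 and 3 without mock library 1. The called share of the photosystem list was 22.0%, beside 27.6% of all loci. CAB2, a chlorophyll-binding protein gene with near-identical copies, between which the sharing of reads is uncertain, had 790.4 and 493 with brassinolide against 3080.1 and 1619.8 with mock treatment (log2 change -1.84, adjusted p = 4.23e-08, without the block 0.0766). Regulators of dark growth and light signalling stood near the background, with 3 of 20 higher and 1 lower and none stable, and none was called without the block or without brassinolide library 1. HY5, a promoter of light-grown development, had 1343 and 1037 in brassinolide libraries and 1346 and 1033 in mock libraries.

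Of 37 cyclin and cyclin-dependent kinase genes 9 were higher and 5 lower, 5 and 2 stably and likewise 5 and 2 without the block, with 7 called without brassinolide library 1. The mitotic cyclin gene CYCB1;3 had 128 and 107 normalized counts in brassinolide libraries and 25.8 and 34.4 in mock libraries (log2 change 1.94, SE 0.28, adjusted p = 0.000117), and CYCB1;4 had 225 and 217 with brassinolide and 99.3 and 72.8 with mock treatment (log2 change 1.37, adjusted p = 6.78e-05). The G1 cyclin gene CYCD3;3 was lower, at 155 and 138 with brassinolide against 408 and 286 with mock treatment (log2 change -1.22, adjusted p = 2.18e-05). On the cyclin list 37.8% of members were called, beside 27.6% of all loci, of which 14.8% were higher and 12.8% lower. None of 14 DNA replication licensing genes was called by limma, while 2 had an unadjusted p under 0.05, both lower, and edgeR called 1 of 13.

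**Figure D5:**
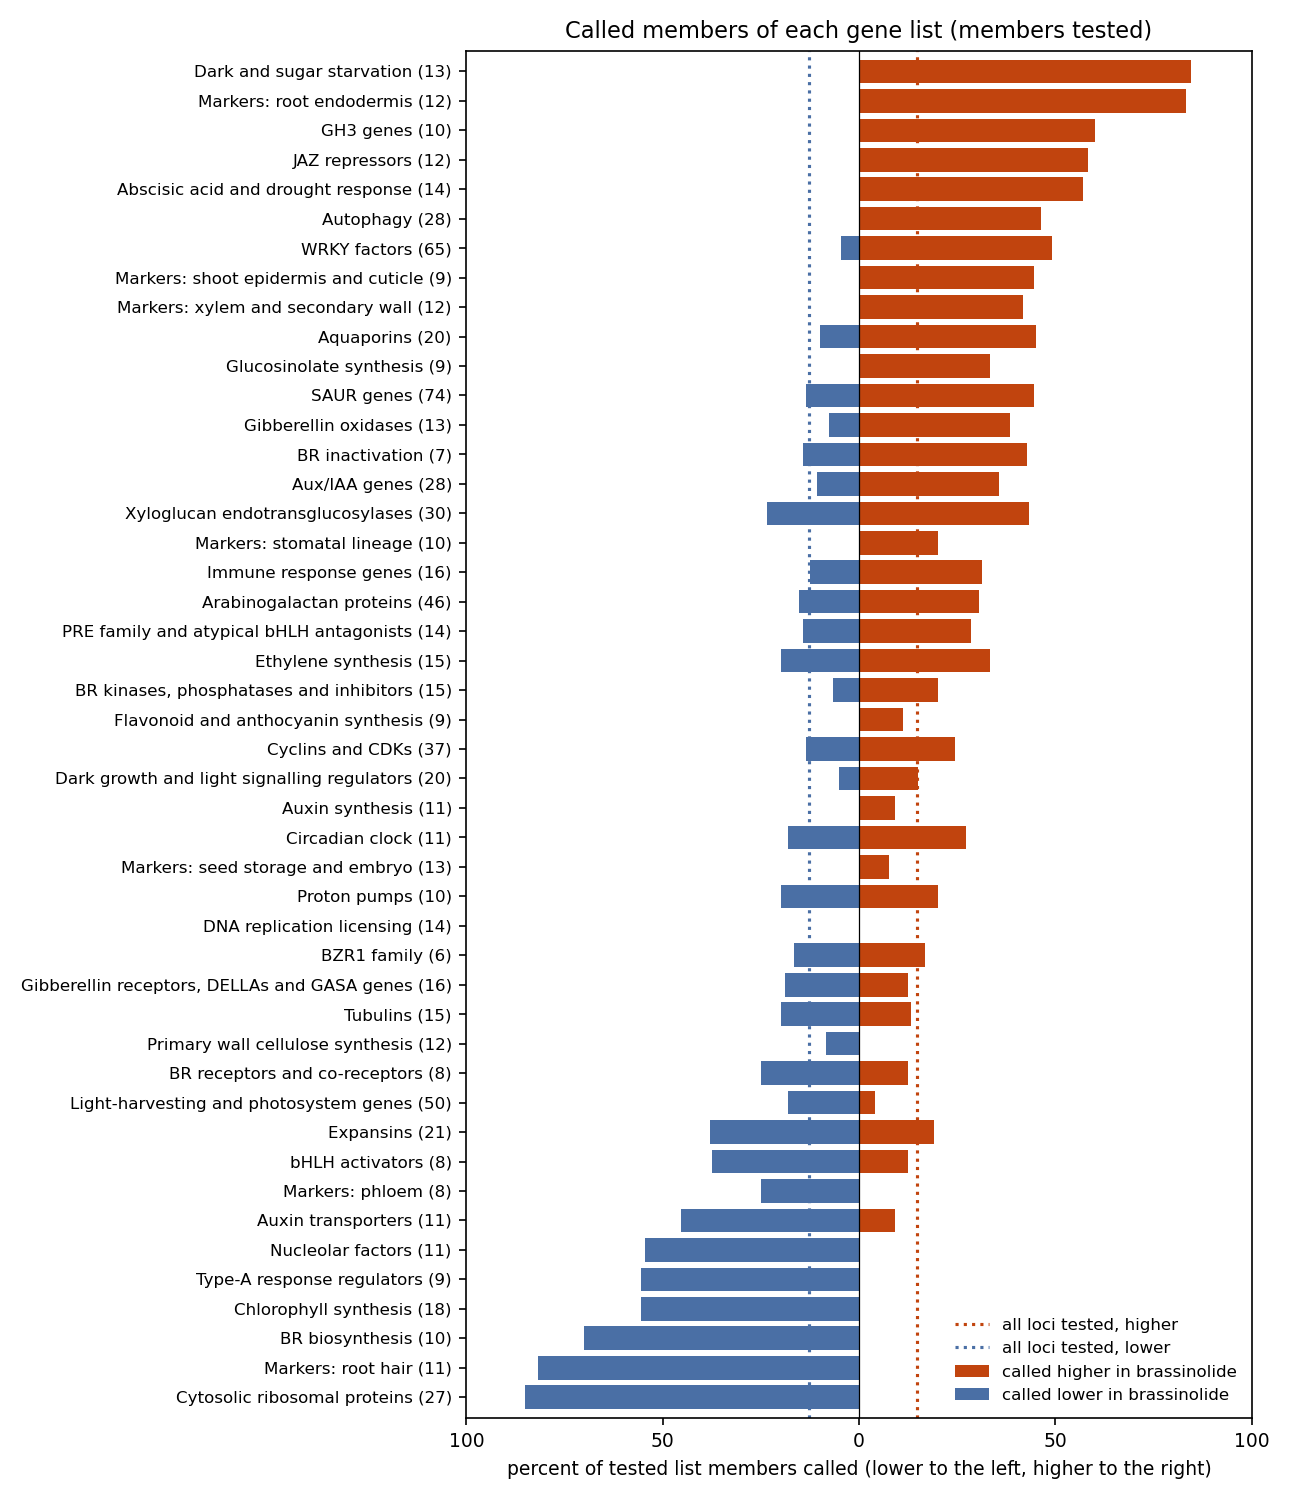
Percent of the tested members of each of 46 gene lists called higher (orange, to the right) or lower (blue, to the left) with brassinolide, with the number tested in brackets and dotted lines at the 14.8% and 12.8% of all loci. Dark and sugar starvation genes and endodermis markers have 11 of 13 and 10 of 12 members called higher, and cytosolic ribosomal proteins, root hair markers and brassinosteroid synthesis genes 23 of 27, 9 of 11 and 7 of 10 called lower.

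Of 15 tubulin genes 2 were higher and 3 lower, 1 stably, with 1 called without mock library 1. Of 11 clock genes 3 were higher and 2 lower, none stably, with 1 called without brassinolide library 1 and 2 without each of the other libraries. Of 9 glucosinolate genes 3 were higher, 1 stably, with 1 called without mock library 2, and of 9 flavonoid genes 1 was higher and none stable. None of the calls on these 4 lists was made without the block. The called shares were 33.3% of tubulin, 45.5% of clock, 33.3% of glucosinolate and 11.1% of flavonoid genes. Over all 46 lists, 385 of 835 tested loci were called (46.1%), beside 27.6% of all loci, and the lists were chosen with earlier results of these data known.

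The loci with the largest stable rises, among those with a mean of at least 50 normalized counts in the higher group, were low or at 0 in mock libraries. CYP78A10, of a P450 family tied to organ growth in Arabidopsis, had 355 and 254 normalized counts in brassinolide libraries and 0 and 0.801 in mock libraries, which is 1 read in the mock group (ratio 589, 95% counting interval 105 to 23294). BCB, a blue copper-binding protein, had 7923 and 4659 with brassinolide against 25.8 and 42.3 with mock treatment (log2 change 7.48, SE 0.47, adjusted p = 0.000296, with the 4 libraries alone 0.0547). CEL3, a cellulase, was at 0 in both mock libraries and had 89.7 and 122 in brassinolide libraries, at least 33.8-fold higher, against the floor of 3 reads given above. LAC5, a laccase, had 101 and 109.7 with brassinolide against 0 and 0.8 with mock treatment, and JRG21, annotated as jasmonate-regulated, 822 and 758 with brassinolide against 6.45 and 16 with mock treatment (adjusted p = 9.11e-07 and 1.9e-08). All of these loci had brassinolide values far above both mock libraries, as their choice by size of change implies. Brassinolide was the higher without overlap at 22.4% of all loci. Of 2 genes annotated as hydroxyproline-rich glycoproteins, AT4G38080 had 524 and 606 with brassinolide against 9.02 and 9.57 with mock treatment, and PELPK2 had 119.6 and 92.2 with brassinolide against 1.29 and 0 with mock treatment. RGF9, a root meristem growth factor peptide gene, had 95.2 and 60.3 in brassinolide libraries and 1.29 and 0 in mock libraries. AT1G53690, annotated as a small RNA polymerase subunit, had 804 and 549 with brassinolide against 11.6 and 3.91 with mock treatment. AT1G53540, of the HSP20-like chaperones, completed the highest 10, at 59.1 and 43.1 with brassinolide against 0 and 0 with mock treatment.

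The largest stable falls were in loci that were low or at 0 with brassinolide. AT4G22485 was at 0 in both brassinolide libraries and had 111 and 182 normalized counts in mock libraries, at least 46.8-fold lower, against the same floor. AT4G22505, at 0 in both brassinolide libraries too, had 42.6 and 64 in mock libraries, at least 17.0-fold lower. AT5G46890 had 1.32 and 1.54 with brassinolide against 348 and 250.2 with mock treatment, and AT5G01870 had 6.57 and 7.69 with brassinolide against 308 and 303 with mock treatment (adjusted p = 3.42e-10 and 1.24e-09). All 4 are annotated to the superfamily of bifunctional inhibitors, lipid-transfer proteins and 2S albumins. None of them overlapped between the groups, which holds for 22.8% of all loci in this direction. AT5G54370, annotated as a late embryogenesis abundant protein, had 1.32 and 3.86 with brassinolide against 199 and 215 with mock treatment (log2 change -5.95, adjusted p = 7.22e-06). The lectin gene AT5G35940 had 1.32 and 1.54 with brassinolide against 96.8 and 91.2 with mock treatment, AT5G10130, of the Ole e 1 and extensin family, 0 and 3.08 with brassinolide against 86.3 and 69.4 with mock treatment, and AT3G05727 1.31 and 0 with brassinolide against 74.6 and 46.9 with mock treatment. AGP30 and BS1, given above, were the others of the lowest 10.

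By amount of transcript, the largest stable rises were those of DIN10, ASN1, DIN2, ERD14 and PIP3, and the largest stable falls included those of GASA4, PYK10, SAG21 and HSC70-1. ERD14, a dehydrin that protects proteins under drought, had 60667 and 38046 normalized counts in brassinolide libraries and 22370.0 and 14820.0 in mock libraries (log2 change 1.3997, SE 0.09, adjusted p = 4.88e-08). In each of these genes the libraries of the groups did not overlap, as at 22.4% of all loci in the higher and 22.8% in the lower direction. The plasma membrane aquaporin gene PIP3 had 68997 and 59389 with brassinolide against 39229 and 31188 with mock treatment (log2 change 0.87, adjusted p = 2.09e-06, without the block 0.0502). PYK10, the glucosidase of root ER bodies, had 26989 and 36199 with brassinolide against 54589 and 59050.0 with mock treatment (log2 change -0.86, SE 0.10, adjusted p = 2.02e-05). SAG21, a senescence-associated gene, had 17504 and 13099 with brassinolide against 44601 and 29270.0 with mock treatment (log2 change -1.25, adjusted p = 3.51e-07, without the block 0.0782), and the chaperone gene HSC70-1 50547 and 51521 with brassinolide against 70132 and 65567 with mock treatment (log2 change -0.41, adjusted p = 0.00136, without the block 0.135).

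Set directly against RiD seedlings with rapamycin, brassinolide libraries were higher at 2116 loci (9.09%) and lower at 2534 (10.9%). Of the 148 loci named by rule, 94 differed between brassinolide and rapamycin, and 30 without the block. Among named loci higher than mock with brassinolide, 52 were lower with brassinolide than with rapamycin and 8 were higher, and among those lower than mock, 27 were higher than with rapamycin and 5 lower. DWF4 had 1234 and 1204 normalized counts with brassinolide, 22.3 and 26.8 with rapamycin and 2903 and 2903 with mock treatment, a log2 difference of brassinolide from rapamycin of 5.58 (adjusted p = 2.14e-13). BR6OX2 had 2865 and 3008 with brassinolide, 26.4 and 17.6 with rapamycin and 7004 and 7924 with mock treatment (log2 difference 7.02, adjusted p = 1.25e-11). Both synthesis genes thus lay between rapamycin and mock levels with brassinolide. BR6OX1 had 241 and 215 with brassinolide and 1.39 and 1.53 with rapamycin (log2 difference 6.54, adjusted p = 1.64e-12). BEH2 had 2423 and 3644 with brassinolide and 489.7 and 609 with rapamycin (log2 difference 2.44, adjusted p = 2.83e-10), and PRE1 had 27.6 and 17.7 with brassinolide and 1.39 and 0.764 with rapamycin (log2 difference 3.50, adjusted p = 0.000164). SAUR9 and ACS5 were lower with brassinolide, by log2 differences of -1.53 and -1.68 (adjusted p = 0.000156 and 9.32e-05). CEL3, HAI1, RD22 and LTI78 were higher with brassinolide than with rapamycin, by 1.70, 1.36, 1.08 and 1.17 (adjusted p = 0.0326, 3.28e-05, 5.65e-07 and 0.0015), and AT5G46890 was lower by the log2 difference -3.32 (adjusted p = 3.32e-07). EXPA8, TMM and HSC70-1 had log2 differences of -0.043, 0.097 and -0.056 (adjusted p = 0.804, 0.734 and 0.682). Brassinolide and rapamycin were each given at 100 nM, and both groups share the mock libraries they were set against.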

How the data were processed

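Libraries were made from poly(A) RNA with a stranded kit, per the labels. The authors deposited normalized counts per transcript, here treated as a signal. Salmon and DESeq2 are named in the submitters' processing notes. Their versions and settings, the genome build, the annotation, the use of strand and the sharing of reads between gene copies are not stated. The table held 40812 transcripts of 32753 loci, and values were summed per locus. Low values lay at whole multiples of 1 read, within 0.1 reads for 96.3% to 99.6% of them in the 6 RiD libraries, which gave their depths and the reads for edgeR 4.0.16. In the Col-0 libraries, whose depths are not given, the share was 78.4% to 98.8%.

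The test ran on log2(sum + 1), a constant that sets changes near 0. A locus was tested if 2 libraries or more reached 1 normalized count, which left 23285 loci. They were fitted with limma 3.58.1 (mean-variance trend, robust moderation) over all 10 libraries, with 5 groups and the replicate number as a block, and p-values were adjusted by the Benjamini-Hochberg method over all loci. What the number marks, and whether a group's libraries came from separate plantings, is not in the labels, so that p-values reflect only the spread among these libraries. Log2 changes are brassinolide minus mock. Counting intervals and floors cover counting error only.

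Symbols and products came from RefSeq TAIR10.1, in which 705 loci were not found, and promoter coordinates are those of that assembly. Members and lists were chosen with earlier results of these data known. The named loci were the 10 largest stable rises and falls with a mean of at least 50, the 5 largest by amount each way, up to 4 stable members per list and a set of fixed pathway genes. One locus that the rule names is not reported here. Other list members were named after their values were seen. Alternatives were another constant, other filters, another scaling, fewer groups, moderation without robustness, no block, each library left out and edgeR.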

Additional observations from a re-analysis of the deposited data

How the results depend on the processing

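With no replicate block, 1575 loci were called in place of 6424, 1079 of them higher and 496 lower, 1219 of them changed at least 2-fold in place of 2015, and 1570 were shared with the fit with the block. Called list members then numbered 151 in place of 388, and named loci that differed between brassinolide and rapamycin 30 in place of 94. With no replicate block 44 named loci were no longer called and none changed direction. Pairing by number rests on the values, since the labels do not say what it marks. Leaving out 1 library gave 3268 to 4851 called loci, 1984 to 2694 higher and 1284 to 2157 lower, 1362 to 1981 changed at least 2-fold, and 242 to 316 called list members. The fewest calls came without brassinolide library 1. Of the named loci, BZR1 had log2 changes of -0.035 to 0.10 and PRE1 of -0.88 to 0.20 across these 4 fits, with none called. Constants of 0.5 and 5, no filter, a filter of 10 normalized counts in 2 libraries, upper-quartile scaling, 6 or 4 libraries, moderation without robustness and edgeR gave 5757 to 6841 calls. The cause of these shifts was not tested. With edgeR 3901 loci were higher and 2573 lower. Depth limits loci near 0, where 3 reads equal 2.32 to 3.96 normalized counts in these libraries.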
